A study of Drosophila melanogaster with 9 samples.

Results

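Glutathione and thioredoxin redox genes were followed in Drosophila melanogaster testes on 9 Affymetrix expression arrays, 3 from each of 3 genotypes. The genes were chosen by symbol: the glutathione S-transferases (Gst with a class letter), thioredoxins and thioredoxin reductases (Trx), peroxiredoxins (Prx), superoxide dismutases (Sod) and glutamate-cysteine ligase subunits (Gcl), plus catalase (Cat) and deadhead (dhd). This gave 47 of the 10844 genes on the array that have a probe set with a single symbol, each read through its brightest probe set. They comprise 11 delta, 14 epsilon and 9 other Gst genes, 5 genes of the thioredoxin system, 3 peroxiredoxins, 3 dismutase or catalase genes and 2 ligase subunits. Another 7 genes fit the symbol rule in the gene table but had no probe set of their own and were not analysed here, among them Sod1, Prx2, Prx4 and Prx5.

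Males were reared at 25 °C and dissected within 1 day of eclosion, and accessory glands and ejaculatory ducts were meant to be removed. Control testes, normal by the labels, came from red[1] e[1] males. The can males had can[3] on that same red[1] e[1] chromosome, in which the allele arose, and also carried w. The third group carried comr[z1340] cn[1] bw[1] by title and genotype, while its source name and description give aly, and it is called labelled comr below. Control and can males thus share the red e markers, and the males labelled comr do not carry them by the labels. Strain background and mutation therefore cannot be told apart for that group. In can against control, w and can[3] cannot be told apart either. Nothing in the labels tells whether the 3 replicates of a genotype were dissected separately, and p-values therefore reflect array-to-array spread that may be technical.

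Most peroxide in animal cells is removed by catalase and by peroxiredoxins, which are recharged by thioredoxin, which in turn is recharged by thioredoxin reductase at the expense of NADPH. Flies have no glutathione reductase, and thioredoxin also returns oxidised glutathione to its reduced form. Glutathione is made by glutamate-cysteine ligase and glutathione synthetase, and Gst enzymes join it to lipid peroxidation products, toxins and other electrophiles. The testis has its own versions of several of these proteins. In comr, aly and can mutants germ cells arrest as mature spermatocytes and do not become spermatids.

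Arrays of one genotype correlated at 0.972 to 0.987 across the tested probe sets. The summed signal of 10 sperm and spermatid markers was 29644 to 31905 on the control arrays, 7705 to 8461 on those labelled comr and 8093 to 8420 on can arrays. That of 10 early germline and spermatocyte markers was 832 to 915, 4779 to 4794 and 2820 to 3024. In the order control, labelled comr and can, the comr transcript had a signal of 17.3 ± 5.63, 33.5 ± 3.04 and 58.1 ± 9.89 (mean ± SD, n = 3), the can transcript 31.8 ± 8.89, 163 ± 13.0 and 38.0 ± 9.62, and aly 86.3 ± 5.63, 546 ± 16.7 and 176 ± 11.4. Neither comr nor can was thus below control in the arrays named for it. Accessory gland RNA differed within every group: the summed signal of 15 gland genes was 626 to 6014 in control, 55.8 to 2819 in arrays labelled comr and 125 to 5463 in can. The 3' to 5' signal ratio of GAPDH, a measure of RNA integrity, was 2.59 ± 0.294 in control against 5.99 ± 0.635 (labelled comr) and 5.52 ± 1.33 (can). That of actin was 2.62 ± 0.0898, 2.43 ± 0.163 and 2.57 ± 0.259 in the same order, and that of eIF-4a 5.22 ± 0.292, 6.76 ± 0.866 and 3.83 ± 0.490. The 3 ratios thus did not order the genotypes alike, and the part of RNA quality in the differences below was not tested.

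A floor of 20.3 was taken from the 23 unspiked control probe sets, as their brightest signal. GstD6, GstE7, GstE14 and GstZ2 lay at or under it on all 9 arrays. Together with GstD11, GstE2, GstE13 and GstZ1 they had a mean signal among the lowest 30% of probe sets and were not tested, which left 39 genes. Control signals were highest for the probe sets of GstS1, an enzyme that conjugates the lipid peroxidation product 4-hydroxynonenal, at 2712 ± 166 in control, GstD1, a delta class enzyme, at 2032 ± 180, and TrxT, the thioredoxin of the male germline, at 1482 ± 136.

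**Figure D1:**
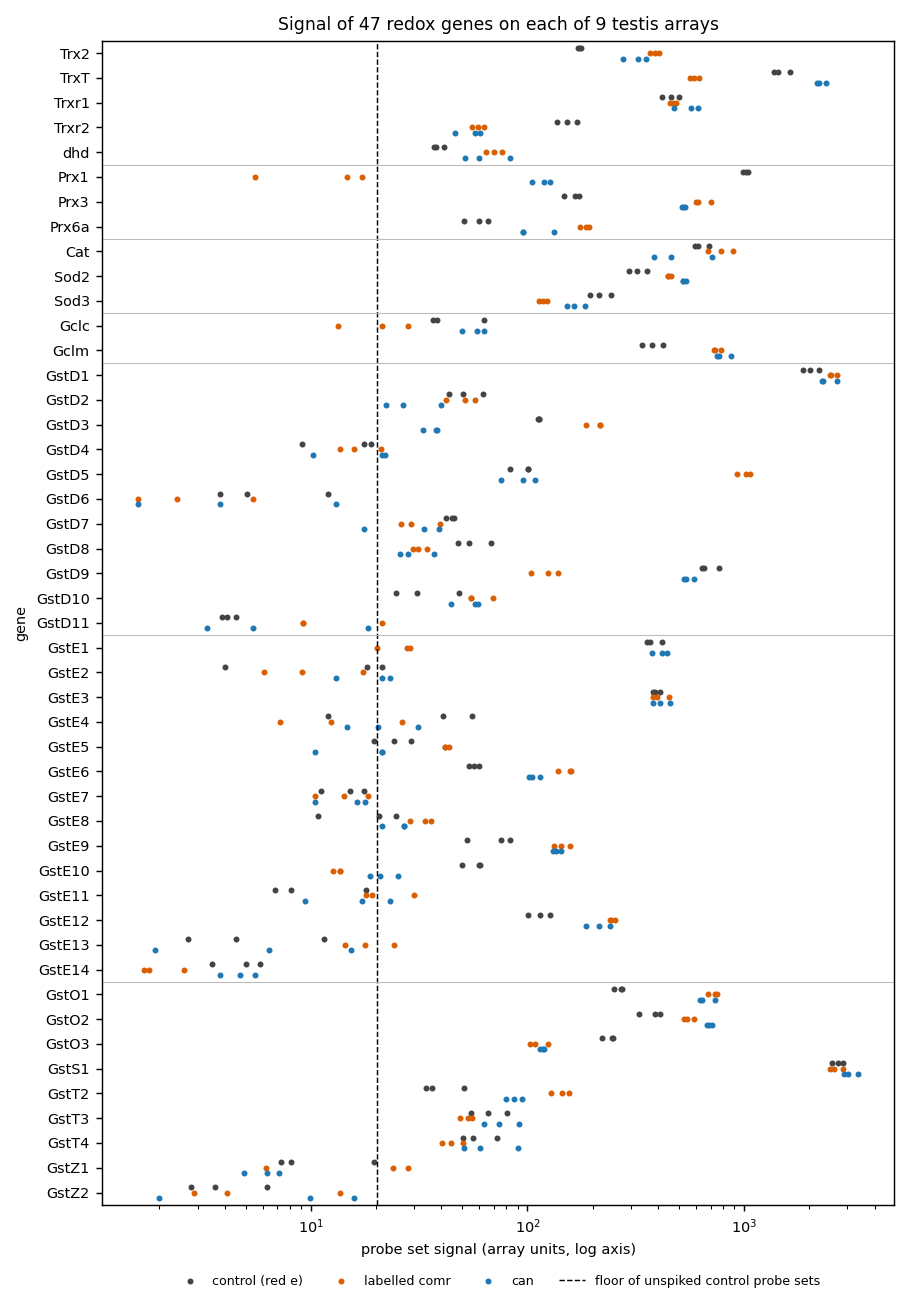
Signal of each of the 47 genes (rows, grouped by family) on each array, on a log axis in array units; each point is 1 array, coloured by genotype, and the dashed line is the floor of 20.3. The arrays labelled comr lie far from the other groups for Prx1, GstD5, GstE1 and GstD9, while GstS1 and GstE3 lie close together.

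Testes of each mutant were compared with control, and with each other, to find which transcripts differ in level. Whole testes cannot tell fewer cells of a type from less RNA per cell. A gene was called when its limma p, adjusted over all 9775 tested probe sets, was under 0.05 and its signal plus 16 differed at least 2-fold. In arrays labelled comr 8 of the 39 tested genes were called higher than control (20.5%, where 28.9% of all tested probe sets were called) and 6 lower (15.4%, against 16.7%). In can 3 were called higher (7.69%, against 20.7% of all tested probe sets) and 3 lower (7.69%, against 13.1%). The median log2 change of the redox genes was 0.30 in arrays labelled comr and 0.19 in can, where the medians over all tested probe sets were 0.35 and 0.29. Both comparisons use the same 3 control arrays. Between arrays labelled comr and can, 2 genes were called higher (5.13%, against 4.54%) and 5 lower (12.8%, against 10.3%). In this scaling the shares called in can, and the share called higher in arrays labelled comr, lay below those of all probe sets. The share called lower in arrays labelled comr was near that of all probe sets, and with quantile normalisation it was 17.9% against 17.1%. No superoxide dismutase or catalase gene was called. With ribosomal protein centring the shares called lower were 48.7% against 44.1% of all probe sets in arrays labelled comr and 64.1% against 52.0% in can.

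The scaling of the arrays sets what counts as a rise or a fall. When arrays were instead centred on ribosomal protein genes, the median of all tested probe sets moved by -1.16 in arrays labelled comr and by -1.34 in can, and with centring on spiked control transcripts by 0.51 and 0.35. Calls held under all 5 scalings for GstD5 (higher), GstD9, GstE1 and Prx1 (lower) in arrays labelled comr, for Prx1 (lower) in can, and between the mutants for GstD3, GstD5, GstD9, GstE1, Prx1 and TrxT. Against control, 10 of 23 named redox genes in arrays labelled comr and 15 of 23 in can changed sign under ribosomal protein centring. All other calls among the 39 tested genes held under only some scalings, and that of Gclc between the mutants under the deposited scaling alone. Calls that turned sign are given with that value.

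**Figure D2:**
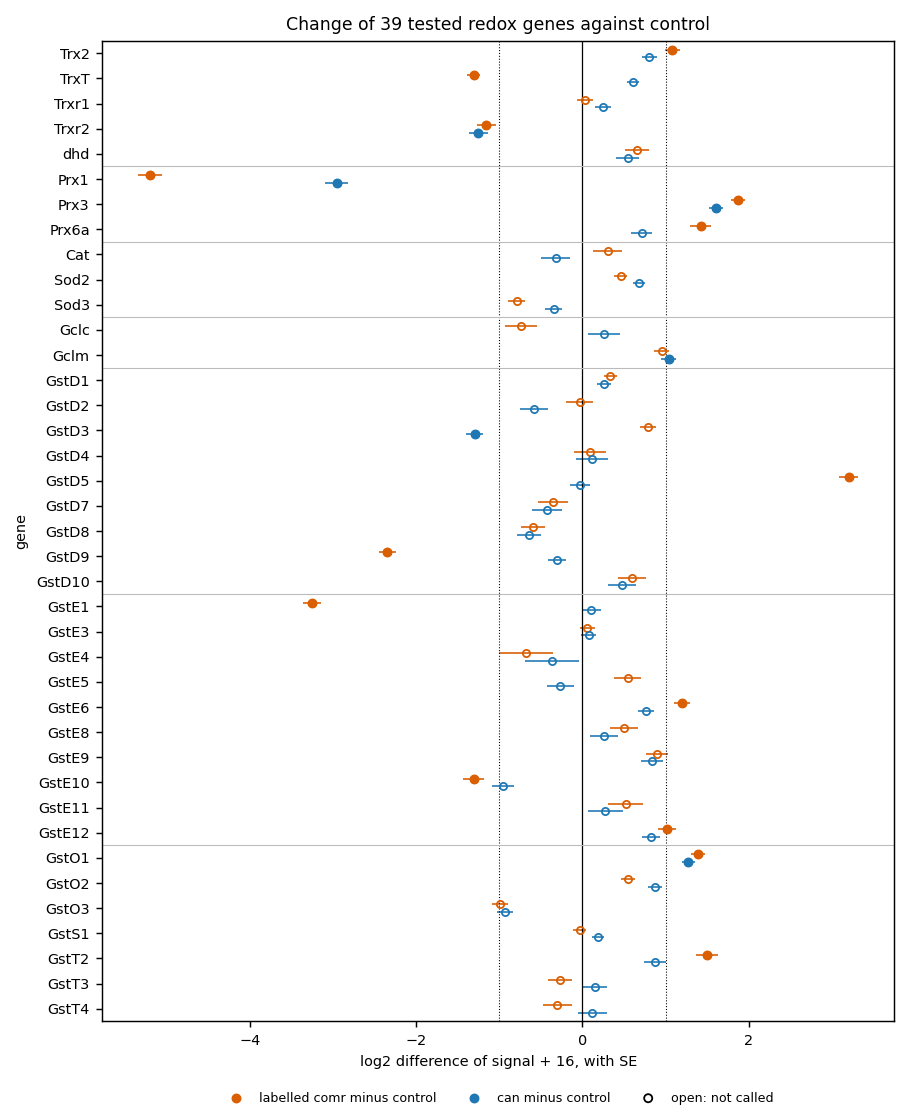
Log2 change of signal plus 16 against control, with its SE, for the 39 tested genes in arrays labelled comr (orange) and can (blue); filled points were called and dotted lines mark 2-fold. Prx1, GstE1 and GstD9 lie farthest to the left and GstD5 farthest to the right, and most other genes lie between the dotted lines.

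The 2 mutants parted on TrxT (CG3315, X chromosome), a thioredoxin known from Y-chromosome loops of primary spermatocytes. Its signals were 1428, 1637 and 1381 in control, 585, 617 and 560.3 in arrays labelled comr and 2177, 2399 and 2211 in can. No array of one genotype reached the range of another. TrxT fell 2.52-fold in arrays labelled comr (a log2 change of -1.31, SE 0.077, adjusted p = 7.70e-09), although with centring on spiked controls the change was -0.80 and under 2-fold. In can it was 1.53-fold higher by signal (log2 change 0.61, SE 0.077, adjusted p = 1.48e-05), short of 2-fold and -0.73 with ribosomal protein centring. Its signal in arrays labelled comr was 3.85-fold below can (log2 change -1.92, SE 0.077, adjusted p = 8.55e-10), a difference of -1.74 to -1.92 over the 5 scalings.

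The neighbouring gene dhd (CG4193, X chromosome) encodes the thioredoxin of the female germline, which acts on sperm chromatin in the fertilised egg. It gave 37.9, 41.3 and 37.0 in control, 76.4, 69.9 and 64.2 in arrays labelled comr and 83.0, 59.7 and 51.5 in can. All these values lay above the floor, and every mutant array was above every control array. The log2 changes of 0.65 (SE 0.14) and 0.54 (SE 0.14) did not reach 2-fold, and with ribosomal protein centring they were -0.50 and -0.79. Probe sequences were not analysed here, so whether this probe set reads other thioredoxin transcripts is unknown.

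Trx2 (CG31884, chromosome arm 2L), the general cytosolic thioredoxin, gave 172, 177 and 174 in control, 368, 387 and 406 in arrays labelled comr and 324, 277 and 352 in can. Both mutants were above control on every array. Trx2 rose 2.22-fold in arrays labelled comr (a log2 change of 1.08, SE 0.090, adjusted p = 2.33e-07, but -0.08 with ribosomal protein centring), and the change in can was 0.80 (SE 0.090), under 2-fold. Quantile normalisation and centring on array medians also put the rise in arrays labelled comr just under 2-fold (log2 changes 0.93 and 0.90).

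The 2 thioredoxin reductases, which keep thioredoxin reduced, behaved differently. Trxr1 (CG2151, X chromosome), the main reductase of the fly, gave 462, 418 and 503 in control, 469, 454 and 486 in arrays labelled comr and 570, 474 and 612 in can. The groups overlapped, and the log2 changes were 0.03 (SE 0.099) and 0.25 (SE 0.099). Trxr2 (CG11401, chromosome arm 3L), its paralog, gave 152, 169 and 137 in control, 59.3, 55.6 and 63.0 in arrays labelled comr and 57.2, 60.5 and 46.3 in can. It fell in both mutants, by a ratio of 2.56 (log2 change -1.16, SE 0.12, adjusted p = 1.30e-06) and 2.80 (log2 change -1.25, SE 0.12, adjusted p = 8.51e-07), and with spiked-control centring these were -0.65 and -0.91 and not called.

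Among the peroxiredoxins, which reduce hydrogen peroxide with electrons from thioredoxin, Prx1 (CG6888, chromosome arm 3L) fell farthest of all 39 tested genes. Its signals were 987, 1017 and 1041 in control, 5.5, 17.3 and 14.7 in arrays labelled comr and 119, 105 and 127 in can. All 3 arrays labelled comr were under the floor, so the gene was at least 49.98-fold lower there (adjusted p = 6.28e-12 for a fitted change of -5.20), and it was 8.71-fold lower in can (log2 change -2.96, SE 0.14, adjusted p = 2.62e-09). It was also at least 5.74-fold lower in arrays labelled comr than in can (adjusted p = 6.80e-08).

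The other 2 peroxiredoxins were higher than control on every mutant array. Prx3 (CG5826, chromosome arm 3R), the mitochondrial 2-Cys enzyme, gave 165, 148 and 174 in control, 615, 598 and 706 in arrays labelled comr and 530, 519 and 536 in can. It rose 3.94-fold (log2 change 1.88, SE 0.084, adjusted p = 5.90e-10) and 3.26-fold (log2 change 1.61, SE 0.084, adjusted p = 4.94e-09), with groups well apart, and ribosomal protein centring left changes of 0.72 and 0.28 that were not called. Prx6a (CG3083, chromosome arm 2L), a 1-Cys peroxiredoxin, gave 51.0, 66.0 and 59.6 in control, 174, 186 and 193 in arrays labelled comr and 132, 95 and 95.4 in can. It rose 3.14-fold in arrays labelled comr (a log2 change of 1.42, SE 0.13, adjusted p = 4.50e-07, and 0.27 with ribosomal protein centring), while its change of 0.71 (SE 0.13) in can missed 2-fold and was -0.62 with that centring.

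Of the dismutases, which turn superoxide into hydrogen peroxide, and catalase, which breaks hydrogen peroxide down in peroxisomes, none was called in either mutant. Cat (CG6871, chromosome arm 3L) gave 616, 687 and 594 in control, 684, 783 and 891 in arrays labelled comr and 384, 459 and 713 in can. The groups overlapped, and the can arrays spread most (518 ± 172). Sod2 (CG8905, chromosome arm 2R), the mitochondrial manganese enzyme, gave 293, 321 and 358 in control, 447, 446 and 459 in arrays labelled comr and 522, 524 and 537 in can. Each mutant array exceeded every control array, by log2 changes of 0.46 (SE 0.078) and 0.68 (SE 0.078) that stayed under 2-fold and were -0.70 and -0.66 with ribosomal protein centring. Sod3 (CG9027, chromosome arm 2R), the extracellular copper and zinc enzyme, gave 213, 195 and 243 in control, 124, 118 and 113 in arrays labelled comr and 185, 164 and 153 in can. Its log2 changes were -0.79 (SE 0.10) and -0.35 (SE 0.10). A further Sod3 probe set gave 64.2, 48.4 and 52.3, then 34.5, 39 and 34.2, then 43.8, 58.8 and 60.5, with overlap between control and can and none between control and arrays labelled comr.

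The subunits of glutamate-cysteine ligase, the first and rate-limiting enzyme of glutathione synthesis, did not follow one another in the arrays labelled comr. Gclm (CG4919, chromosome arm 3R), the modifier subunit, gave 339, 375 and 424 in control, 726, 734 and 778 in arrays labelled comr and 752, 763 and 868 in can. Every mutant array exceeded every control array. Gclm rose 2.10-fold in can (log2 change 1.04, SE 0.089, adjusted p = 4.04e-07, but -0.30 with ribosomal protein centring) and its change of 0.95 (SE 0.089) in arrays labelled comr lay just under the threshold and was -0.21 with that centring. The call in can is a matter of the threshold: without control replicate 1 the change was 0.96 and without can replicate 3 it was 0.97. Gclc (CG2259, X chromosome), the catalytic subunit, gave 63.2, 36.7 and 38.2 in control, 28.2, 21.3 and 13.4 in arrays labelled comr and 49.7, 63.3 and 58.6 in can. It was lower in arrays labelled comr than in can (log2 change -1.001, SE 0.19, adjusted p = 8.61e-04), a value at the threshold that the other scalings put at -0.78 to -0.92, and that was -0.85 without comr replicate 3, -0.94 without can replicate 2 and -0.99 without can replicate 3. Against control its changes were -0.74 (SE 0.19) and 0.26 (SE 0.19), and 1 of the arrays labelled comr lay under the floor.

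Of 9 tested delta genes GstD5 was called higher and GstD9 lower in arrays labelled comr, and GstD3 lower in can. GstD5 (CG12242, chromosome arm 3R) gave 101, 83.3 and 101 in control, 1025, 924 and 1068 in arrays labelled comr and 109, 75.6 and 95.3 in can. It rose 10.6-fold in arrays labelled comr (a log2 change of 3.20, SE 0.12, adjusted p = 9.81e-11), the largest rise of any tested redox gene, while can and control overlapped (log2 change -0.03, SE 0.12). GstD9 (CG10091, chromosome arm 3R) gave 652, 643 and 767 in control, 125, 104 and 139 in arrays labelled comr and 585, 537 and 529 in can. It fell 5.63-fold in arrays labelled comr (a log2 change of -2.35, SE 0.10, adjusted p = 5.63e-10) and had a log2 change of -0.31 (SE 0.10), under 2-fold, in can. GstD1 (CG10045), known for breaking down DDT, had log2 changes of 0.34 (SE 0.082) and, in can, 0.26 (SE 0.082), or -0.82 and -1.08 with ribosomal protein centring.

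GstD3 (CG4381, chromosome arm 3R) lay on opposite sides of control in the mutants. It gave 112, 113 and 113 in control, 216, 186 and 217 in arrays labelled comr and 37.8, 33.0 and 38.2 in can. It was 3.11-fold lower in can (log2 change -1.30, SE 0.097, adjusted p = 1.15e-07, and -0.95 with spiked-control centring). Its log2 change in arrays labelled comr was 0.79 (SE 0.097), under 2-fold and -0.37 with ribosomal protein centring. Arrays labelled comr exceeded can 5.68-fold (log2 change 2.08, SE 0.097, adjusted p = 3.32e-09).

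In the RefSeq gene table (Release 6 plus ISO1 MT assembly) the delta genes GstD10, GstD9, GstD1, GstD2, GstD3, GstD4, GstD5, GstD6, GstD7 and GstD8 follow one another on 3R with no other protein-coding gene starting between them. Neighbours in this row differed widely in arrays labelled comr: GstD9 (log2 change -2.35) stands next to GstD10 (0.60) and GstD1 (0.34), and GstD5 (3.20) next to GstD4 (0.09), whose signal of 15.2 in control was under the floor. The genes GstD7 and GstD8, beyond GstD5 and the untested GstD6, had log2 changes of -0.35 and -0.60. The files name no genome build, so no coordinates are given. The delta genes are close in sequence, and their probe sets may read one another's transcripts.

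**Figure D3:**
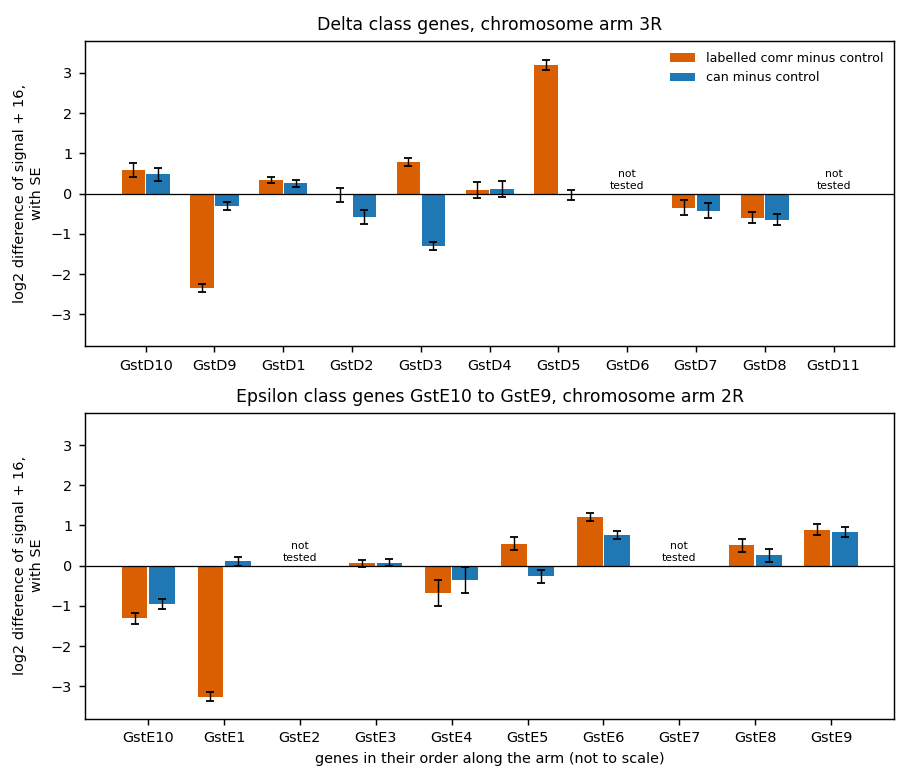
Log2 change of signal plus 16 against control (bars, with SE) for the delta genes (top) and the adjoining epsilon genes (bottom), in their order along the chromosome arm, for arrays labelled comr (orange) and can (blue). In arrays labelled comr GstD9 and GstE1 stand far below 0 and GstD5 far above it, with smaller bars for all other genes.

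Of 10 tested epsilon genes GstE12 and GstE6 were called higher and GstE1 and GstE10 lower in arrays labelled comr, and none was called in can. GstE1 (CG5164, chromosome arm 2R) gave 356, 366 and 419 in control, 28.8, 20.1 and 27.8 in arrays labelled comr and 375, 416 and 442 in can. It fell 15.03-fold in arrays labelled comr, nearly to the floor (log2 change -3.26, SE 0.11, adjusted p = 3.77e-11), and can and control overlapped (log2 change 0.11, SE 0.11). GstE10 (CG17522), next to it, gave 50, 59.8 and 60.7 in control, 13.6, 13.7 and 12.6 in arrays labelled comr and 20.8, 25.2 and 18.8 in can. All arrays labelled comr were under the floor, at least 2.79-fold lower (adjusted p = 1.19e-06 for a fitted change of -1.31, and -0.80 with spiked-control centring), and the change in can was -0.95 (SE 0.13).

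GstE6 (CG17530) gave 56.4, 59.9 and 53.5 in control, 157, 138 and 159 in arrays labelled comr and 114, 101 and 105 in can. It rose 2.67-fold in arrays labelled comr (a log2 change of 1.20, SE 0.098, adjusted p = 1.73e-07, and 0.05 with ribosomal protein centring), with 0.76 (SE 0.098) in can. Quantile normalisation put the rise of GstE6 in arrays labelled comr just under 2-fold (log2 change 0.97). GstE12 (CG16936), which lies elsewhere on 2R, gave 114, 100.1 and 128 in control, 241, 244 and 254 in arrays labelled comr and 241, 214 and 186 in can. Its log2 change of 1.02 (SE 0.11, adjusted p = 2.08e-06) in arrays labelled comr was at the threshold, was 0.94 without control replicate 2 and 0.996 without comr replicate 3, both short of 2-fold, and was -0.14 with ribosomal protein centring. Quantile normalisation and array median centring gave 0.77 and 0.83 for GstE12 there, also short of 2-fold. GstE3 (CG17524) gave 410, 387 and 378 in control, 451, 379 and 398 in arrays labelled comr and 454, 411 and 379 in can, and the groups overlapped. The remaining tested epsilon genes, GstE4, GstE5, GstE8, GstE9 and GstE11, had log2 changes of -0.67 to 0.90 in arrays labelled comr and of -0.37 to 0.83 in can.

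The males labelled comr carry a second chromosome marked with cn and bw, and GstE1, GstE10 and comr lie on the same arm, 2R. The delta genes lie on the same arm as neither comr nor can, since can is on 3L, and on the third chromosome that control and can males have in common by the labels. Differences of GstD5, GstD9 and GstE1 between the arrays labelled comr and the other groups, in expression or in probe match, therefore cannot be told apart from strain background.

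Of the 7 other tested Gst genes GstO1 was called in both mutants and GstT2 in arrays labelled comr. GstO1 (CG6662, chromosome arm 3L), an omega enzyme, gave 251, 273 and 271 in control, 734, 746 and 683 in arrays labelled comr and 623, 733 and 642 in can. In arrays labelled comr it rose 2.72-fold (log2 change 1.39, SE 0.079, adjusted p = 5.64e-09) and in can 2.51-fold (log2 change 1.28, SE 0.079, adjusted p = 2.17e-08), and with ribosomal protein centring the changes were 0.23 and -0.06. GstT2 (CG30005, chromosome arm 2R), a theta enzyme, gave 33.9, 51.2 and 36.3 in control, 144, 156 and 128 in arrays labelled comr and 87.1, 79.2 and 94.2 in can. It rose 3.58-fold in arrays labelled comr (a log2 change of 1.4998, SE 0.13, adjusted p = 3.38e-07, and 0.34 with ribosomal protein centring), with a change of 0.87 (SE 0.13) in can. The second omega gene on this list, GstO2, had log2 changes of 0.55 (SE 0.086) and 0.87 (SE 0.086), and GstO3 of -0.99 (SE 0.093) and -0.93 (SE 0.093). Dimmer GstO2 probe sets, with mean signals of 29.9 and 20.8 over the 9 arrays, gave 0.47 and 0.24, and 0.02 and 0.23, in the same order. These fitted changes were all short of the 2-fold needed for a call. By the ratio of signals GstO3 was 2.13-fold lower in arrays labelled comr and 2.04-fold lower in can, without overlap with control. It was called lower in both mutants with quantile normalisation, ribosomal protein centring and array median centring, but not with spiked-control centring. For GstS1, GstT3 and GstT4 they were -0.30 to -0.03 in arrays labelled comr and 0.12 to 0.19 in can.

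Several Gst genes are expressed in fat body, gut and blood cells, so markers of these tissues were read as well. All 4 tested haemocyte markers were called higher in arrays labelled comr and 2 in can, where 28.9% and 20.7% of all tested probe sets were. The summed signal of 6 such markers was 158 to 286 in control, 581 to 664 in arrays labelled comr and 392 to 461 in can, with NimC1 and eater under the floor everywhere. Of 8 tested fat body markers 3 were called lower in arrays labelled comr and 1 in can, where 16.7% and 13.1% of all tested probe sets were. Their median log2 changes were -0.20 and 0.19, with a summed signal of 538 to 698 in control, 262 to 311 in arrays labelled comr and 438 to 508 in can. The summed signal of 10 gut and Malpighian tubule markers was 351 to 384, 557 to 686 and 340 to 425, with Irk3, alphaTry, betaTry and Jon99Ci under the floor on all arrays. Of 6 tested ones 1 was called higher and 1 lower in arrays labelled comr (against 28.9% and 16.7% of all tested probe sets), with 0 calls in can (against 20.7% and 13.1%). For 6 muscle markers the summed signal was 601 to 663, 907 to 1135 and 826 to 914, with none of 4 called. The part of these tissues in the Gst results was not tested. The somatic cyst and hub markers gave 207 to 229, 214 to 224 and 263 to 266, with none of 5 called in either mutant. Of all tested probe sets 28.9% were called higher and 16.7% lower in arrays labelled comr, and 20.7% and 13.1% in can. With so few muscle, cyst and hub markers tested, a lack of calls says little.

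Of 37 further tested genes of glutathione, thioredoxin and redox metabolism, 15 were called higher (40.5%, where 28.9% of all probe sets were) and 4 lower (10.8%, against 16.7%) in arrays labelled comr. In can 9 were called higher (24.3%, against 20.7%) and 3 lower (8.11%, against 13.1%). The count of rises depended on the scaling. With ribosomal protein centring 1 was higher (2.70%, against 3.96% of all probe sets) and 12 were lower (32.4%, against 44.1%) in arrays labelled comr. In can 0 were then higher (against 0.870%) and 15 lower (40.5%, against 52.0%), where 9 were higher as deposited. The same 3 genes had the largest falls in both mutants: Grx1t, a glutaredoxin, DJ-1alpha, the testis paralog of the oxidative stress protein DJ-1, and Men, a malic enzyme that makes NADPH. Grx1t gave 952, 1028 and 1052 in control, 58.4, 78.5 and 71.3 in arrays labelled comr and 303, 289 and 271 in can, 14.7-fold (log2 change -3.59, SE 0.096, adjusted p = 4.80e-12) and 3.51-fold (log2 change -1.76, SE 0.096) lower. DJ-1alpha gave 216, 337 and 322, then 36.9, 33.0 and 44.0, then 55.1, 49.0 and 58.3, and fell 7.59-fold and 5.30-fold (log2 changes -2.49 and -2.11, SE 0.15). Men gave 463, 537 and 419, then 91.4, 65.4 and 78.6, then 160.0, 155 and 156, and fell 6.05-fold and 2.99-fold (log2 changes -2.37 and -1.49, SE 0.12). All 3 falls were called in both mutants with ribosomal protein and with spiked-control centring.

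Among the rises of that list, Grx1, the general glutaredoxin, went from 20.1, 19.4 and 32.0 in control to 307, 263 and 264 in arrays labelled comr and 85.3, 83.1 and 61.9 in can. Only 1 of the control arrays was above the floor, so these ratios rest on a control signal close to background. The ratio was 11.95-fold (log2 change 2.89, SE 0.15, adjusted p = 1.73e-09) and 3.28-fold (log2 change 1.22, SE 0.15), although with ribosomal protein centring the changes were 1.74 and -0.11. Gtpx, the glutathione peroxidase homolog of the fly, went from 312, 329 and 393 to 1154, 1187 and 1478 and to 1418, 1270.0 and 1355, log2 changes of 1.83 (SE 0.11) and 1.92 (SE 0.11) that were 0.68 and 0.59 with ribosomal protein centring. Ccs, the copper chaperone of Sod1, was under the floor on all control and can arrays and at 71.3, 79.3 and 56.0 in arrays labelled comr, at least 3.36-fold higher. Its fitted log2 change there against control was 1.63, or 0.47 and not called with ribosomal protein centring. Of the 9 genes of the list called higher in can, the 3 with the largest changes were Gtpx, eEF1gamma (log2 change 1.44, SE 0.10), a translation factor subunit with a Gst-like domain, and Clic (log2 change 1.43, SE 0.097), a chloride channel protein of the Gst fold. With ribosomal protein centring those of eEF1gamma and Clic were 0.11 and 0.10.

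**Figure D4:**
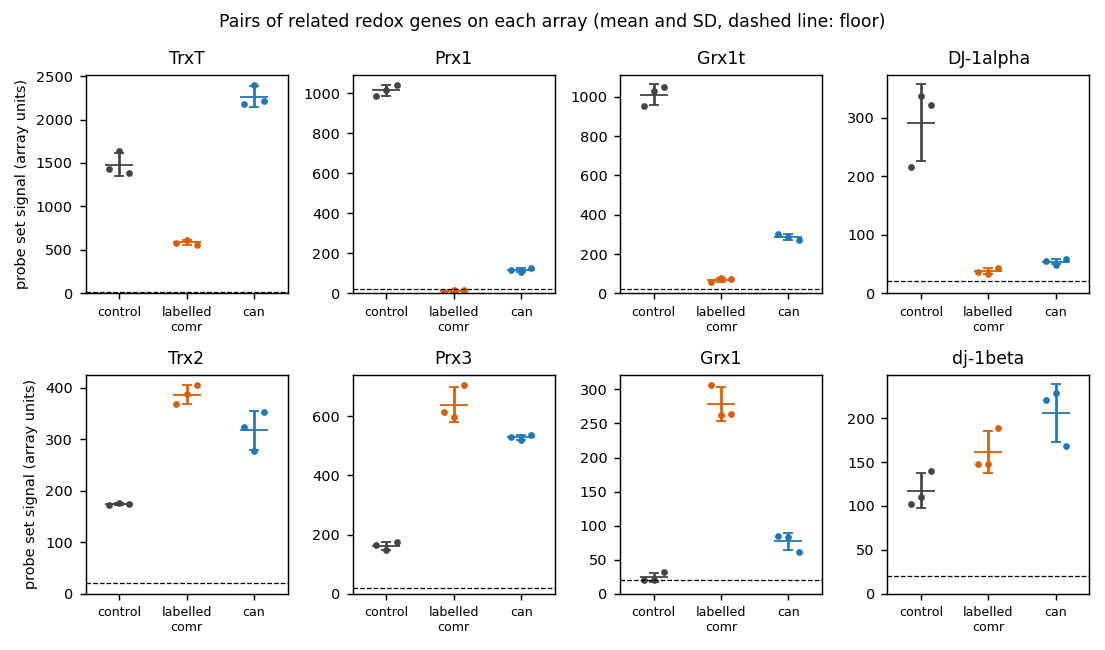
Signal on each array (points, array units, with mean and SD) of 4 pairs of related genes, the upper row TrxT, Prx1, Grx1t and DJ-1alpha and the lower row Trx2, Prx3, Grx1 and dj-1beta, with the floor dashed. The upper genes were lower than control in both mutants, apart from TrxT in can, and the lower genes lay above control in the deposited scaling.

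Some related genes were set beside one another in the deposited scaling. The pairs TrxT and Trx2, Prx1 and Prx3, Grx1t and Grx1, and DJ-1alpha and dj-1beta were put together after their values had been seen. They therefore say nothing about related genes in general. In arrays labelled comr the first of each pair fell and, except for dj-1beta, the second rose, Trx2 in 2 of the 5 scalings. In can Prx1, Grx1t and DJ-1alpha fell while Prx3 and Grx1 rose. With ribosomal protein centring the can changes of Prx3 and Grx1 were 0.28 and -0.11, neither called. With array median centring that of Grx1 was 0.96 and not called. The can signal of TrxT was above control, and those of Trx2 and dj-1beta did not reach 2-fold. For dj-1beta, the general DJ-1 protein, signals of 102, 111 and 140.1 in control stood against 148, 148 and 189 in arrays labelled comr and 220.4, 229 and 169 in can (log2 changes 0.41 and 0.73, SE 0.14, and -0.74 and -0.60 with ribosomal protein centring).

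Between the mutants 7 redox genes were called, 5.13% of those tested higher and 12.8% lower in arrays labelled comr. Of all tested probe sets 4.54% and 10.3% were. Higher in arrays labelled comr than in can were GstD5 (10.9-fold, log2 change 3.23, SE 0.12, adjusted p = 3.77e-10) and GstD3. Lower were GstE1 (16.2-fold, log2 change -3.36, SE 0.11, adjusted p = 1.25e-10), Prx1, GstD9 (4.52-fold, log2 change -2.04, SE 0.10, adjusted p = 8.34e-09), TrxT and, at the threshold, Gclc. All of these except Gclc were called under all 5 scalings. The ratio for GstE1 rests on signals close to the floor in arrays labelled comr. The genes called in the same direction in both mutants against control were Prx1 and Trxr2 (lower) and Prx3 and GstO1 (higher).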

How the data were processed

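Expression in testes was measured on 9 single-colour arrays of 3 genotypes, using 2 µg of RNA each for biotinylated cRNA. What was deposited is a linear intensity per probe set, for which the submitters' processing notes name GCOS 1.4. Its algorithm and filters: not given in the sources used here. Each array had a mean of 100 after leaving out the lowest and highest 2% of values, and no further normalisation was applied. Of 14010 probe sets, 44 were controls; 12443 of the others had 1 gene symbol, 327 several and 1196 none. Symbols came from the platform annotation, updated through Entrez IDs in the RefSeq gene table, which held all 47 genes.

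Log2 of signal plus 16 was fitted in limma 3.58.1 (R 4.3.3), 1 coefficient per genotype, moderated with an intensity trend, two-sided, Benjamini-Hochberg adjusted over 9775 probe sets whose mean signal was above 15.1, leaving out the lowest 30%. Fold changes in signal are ratios of geometric means; where a whole group was at or under the floor they are bounds against the floor. Exact tests of 3 arrays against 3 cannot go below p = 0.1. The number of arrays limits the precision. On simulated data of 9775 probe sets with known changes, log2 changes of 1.5 were recovered at 95.7% and 96.0%, and those of 3 at 100%, for arrays labelled comr and can against control. Far fewer probe sets changed there than were called in these data, and no change nearer 2-fold was simulated. The recovery therefore does not cover calls near the threshold or shifts of scaling. Same-numbered arrays did not deviate together (correlations of deviations -0.14 to 0.19), so no block was used.

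Named by rule were the thioredoxin system, Cat, Sod2, Gclc and Gclm. The rule added, per family and comparison with control, up to 4 called genes without overlap between groups, or else the brightest, then the 5 largest called each way between the mutants and up to 3 each way of the wider redox list. All other genes with values, among them GstD1, GstS1, GstO2, GstO3, Sod3, dj-1beta and the neighbours of GstD5 and GstD9, were named after their values were seen. Alternatives changed the offset, filter, scaling, trend, groups fitted, replicate block, minimum fold and arrays used; leaving out the array of most accessory gland signal in each group was chosen after seeing the data. The genes and lists were chosen with earlier results of these data known. The planned search for an antioxidant response element was not run, and no sequences were analysed here.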

Additional observations from a re-analysis of the deposited data

Results flagged for a closer look

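GstD3 and TrxT lay on opposite sides of control in the 2 mutants: for each, every array labelled comr lay on one side of the control range and every can array on the other. The difference between the mutants was tested directly. It was 2.08 on the log2 scale for GstD3 (adjusted p = 3.32e-09, 206 ± 17.3 in arrays labelled comr against 36.3 ± 2.89 in can, SD, n = 3) and -1.92 for TrxT (adjusted p = 8.55e-10, 588 ± 28.6 against 2262 ± 119), both by limma. Against control, 1 direction of each was under 2-fold, namely GstD3 in arrays labelled comr and TrxT in can. The opposite sides depended on the scaling, since with ribosomal protein centring both mutants were below control for both genes. There the log2 changes in arrays labelled comr and can were -0.37 and -2.64 for GstD3 and -2.47 and -0.73 for TrxT.

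A probe set shared by Prx6b, CG12896 and Prx6c was outside the comparisons because it carries several symbols. It gave 1841, 1901 and 1872 in control, 1528, 1459 and 1676 in arrays labelled comr and 2020.3, 2541 and 2344 in can, all can arrays above all control arrays. The log2 change was 0.29 (SE 0.084, adjusted p = 0.00803) in can and -0.27 (SE 0.084) in arrays labelled comr, both under 2-fold. Which of the 3 genes it reads was not tested.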

How the results depend on the processing

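As reported, redox genes called higher and lower than control numbered 8 and 6 in arrays labelled comr (median log2 change 0.30) and 3 and 3 in can (0.19), and 2 and 5 for arrays labelled comr against can (0.07). Ribosomal protein centring gave 1 and 19 (median -0.86) in arrays labelled comr, where 3.96% and 44.1% of all probe sets were called, and 0 and 25 (-1.15) in can, where 0.870% and 52.0% were, and a median of 0.25 between the mutants. Spiked control centring gave 17 and 3 (0.81, with 45.5% and 13.3% of all probe sets called), 11 and 1 (0.53, with 33.7% and 10.05%) and a median of 0.23. Quantile normalisation moved the medians to 0.52 in arrays labelled comr and 0.16 between the mutants, and gave 5 lower in can (against 14.5% of all probe sets). Array median centring gave medians of 0.12 and -0.075, and 5 lower in can (against 16.03%). An offset of 64 left 4 higher in arrays labelled comr (median 0.20, against 15.3%) and 1 lower in can (against 9.98%). An offset of 1 gave 5 lower in can (against 15.2%), and no filter a median of 0.15 in arrays labelled comr. With no minimum fold the counts were 19 and 10, 17 and 9, and 10 and 11. Of all probe sets 50.5% and 28.8%, 47.2% and 23.9%, and 25.1% and 24.1% were then called. Beyond the settings' own construction the cause was not tested.

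Of 23 named genes, 10 in arrays labelled comr, 15 in can and 2 between the mutants turned sign with ribosomal protein centring. Array median centring turned 2, 5 and 1, spiked control centring 0, 3 and 2, and quantile normalisation 0 in each. Those that turned and were called in either scaling did so with ribosomal protein centring: in arrays labelled comr GstE12 (-0.14), GstE3 (-1.10), Trx2 (-0.076) and Trxr1 (-1.13), and in can Gclc (-1.08), Gclm (-0.30), GstD1 (-1.08), GstE1 (-1.23), GstE3 (-1.26), GstO1 (-0.060) and Trxr1 (-1.09). Leaving out 1 array at a time gave 7 to 10 higher and 6 to 8 lower (median 0.21 to 0.36) in arrays labelled comr, 2 to 4 and 3 to 4 (0.14 to 0.24) in can, and 2 and 4 to 5 (-0.01 to 0.10) between the mutants. Without the array of most accessory gland signal in each group, the Gclm change in can was 0.90 and lost its call. With the replicate number as a block the counts were again 8 and 6, 3 and 3, and 2 and 5, and the same genes were called. The numbers do not pair the arrays (correlations -0.14 to 0.19). Signals near the floor of 20.3 limit the fold changes of dim genes.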
